A study of Mus musculus with 12 samples.

Results

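The mitochondrially encoded transcripts of the mouse lateral septum were described here: all genes that the deposited table places on chromosome MT, 37 of its 54532 genes. By their biotype in the table, 13 were protein-coding, 2 were rRNA genes and 22 were tRNA genes. RNA of this forebrain nucleus was sequenced in bulk from 6 libraries of the CFA group and 6 of the saline group. CFA commonly stands for complete Freund's adjuvant, used to inflame tissue in models of lasting pain, and saline was the control. All libraries were labelled wild type and day 3, and the labels used here give no strain, age or sex. By its title, the series is about inflammatory pain and a role of TIA1 and NF-kB in microglia. Whether each library is a different animal is not stated in the labels, and the spread that the p-values rest on may then be partly technical. Whether poly(A) RNA was selected or rRNA depleted is likewise not stated, which bears on the levels of the rRNA and tRNA genes.

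The mitochondrial genome is a small circle transcribed from both strands into long precursor RNAs. The tRNAs lie between most of the other genes and are cut out, which frees the mRNAs and the rRNAs. The mRNAs encode core subunits of respiratory complexes I, III and IV and of the ATP synthase, complex V, and every other subunit of these complexes comes from the nucleus. Neurons depend on this machinery for the ATP that ion pumping and synaptic transmission use. Most mitochondrial genes lie on 1 strand, here called plus as in the table, and mt-Nd6 and some tRNAs lie on the minus strand.

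The levels have to be read beside the sequences, because chromosome 1 carries a row of pseudogenes that repeat a stretch of the mitochondrial genome. In GRCm38 (mm10) this row spans 24611535 to 24616197 on the minus strand and holds 7 unprocessed pseudogenes. In the GENCODE M21 transcripts, mt-Co2 aligned to Gm28661 over 681 bases with 0 differences. Likewise mt-Atp6 aligned to Gm10925 over 678 bases, mt-Co3 to Gm28437 over 783 bases and mt-Nd4l to Gm10222 over 294 bases, with 0 differences in each. mt-Nd3 aligned to Gm28438 over 345 bases with 1 difference, T3C, counted from the first base of mt-Nd3. Gm28439 matched 876 bases of mt-Nd4 with 0 differences, which is 63.6% of that gene. Gm29216 matched 483 bases of mt-Co1 with 1 difference, which is 31.3% of that gene. The first 120 bases of mt-Nd3 (MT, 9459 to 9578, plus strand) and of its nuclear copy (chromosome 1, 24613000 to 24613119, minus strand) are shown with the differing base in capitals, because it is the base by which the aligned stretches differ.
mt-Nd3: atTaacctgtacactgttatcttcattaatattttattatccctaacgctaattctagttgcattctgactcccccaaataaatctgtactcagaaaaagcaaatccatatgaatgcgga
Gm28438: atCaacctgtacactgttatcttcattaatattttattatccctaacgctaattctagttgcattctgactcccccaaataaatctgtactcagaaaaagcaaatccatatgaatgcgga

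Counted in windows of 150 bases, the labelled read length, the share found without any difference in a nuclear transcript split the protein-coding genes. For mt-Co2 it was 99.4% of windows, for mt-Atp6 99.4%, for mt-Co3 99.8%, for mt-Nd3 97.0% and for mt-Nd4l 98.0%. For mt-Nd4 it was 59.2% and for mt-Co1 23.6%. It was 0% for mt-Nd1, mt-Nd2, mt-Nd5, mt-Nd6, mt-Cytb, mt-Atp8 and both rRNA genes. Only annotated transcripts were searched, not the nuclear genome. Less similar matches were found too, such as mt-Co1 with Gm13340 over 1545 bases at 97.6% identity. mt-Atp8 has another limit: of its 204 bases, 43, in capitals below, are also the first bases of mt-Atp6 on the same strand.
mt-Atp8: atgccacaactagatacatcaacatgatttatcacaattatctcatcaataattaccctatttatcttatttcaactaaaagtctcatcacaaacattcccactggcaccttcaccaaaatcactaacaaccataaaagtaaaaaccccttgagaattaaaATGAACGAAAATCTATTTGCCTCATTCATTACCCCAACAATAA

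The levels split in the same place. They are given in FPKM, fragments scaled to the length of the gene and to a size for the library, so that genes of different length can be set side by side. That size was 0.990 to 1.03 times the recovered reads of the library. The 5 genes with over 90% of windows shared lay between 12.8 and 159 FPKM across the 12 libraries. The 7 other protein-coding genes apart from mt-Atp8 lay between 847 and 10375.5 FPKM, and mt-Atp8 lay between 0.420 and 1.94 FPKM, from 3 to 15 reads per library. The 5 genes made up 0.964% to 1.89% of the summed FPKM of the 13. All 13 come from shared precursor RNAs. The labels do not say how reads that fit more than 1 place, or more than 1 gene, were counted, and the part of this counting in the levels was not tested. The levels of these 5 genes and of mt-Atp8 therefore cannot be read as amounts of mRNA beside the others. In part this limit also holds for mt-Nd4 and mt-Co1, with 59.2% and 23.6% of windows shared, and for shares and ratios that hold them. The sets also differed in length, at 297 to 784 bases for the 5 genes and 519 to 1824 bases for the 7, where mt-Nd6 alone was shorter than the longest of the 5. Their GC contents were 33.0% to 41.1% for the 5 and 34.1% to 39.9% for the 7. The part of length in the levels was not tested.

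**Figure D1:**
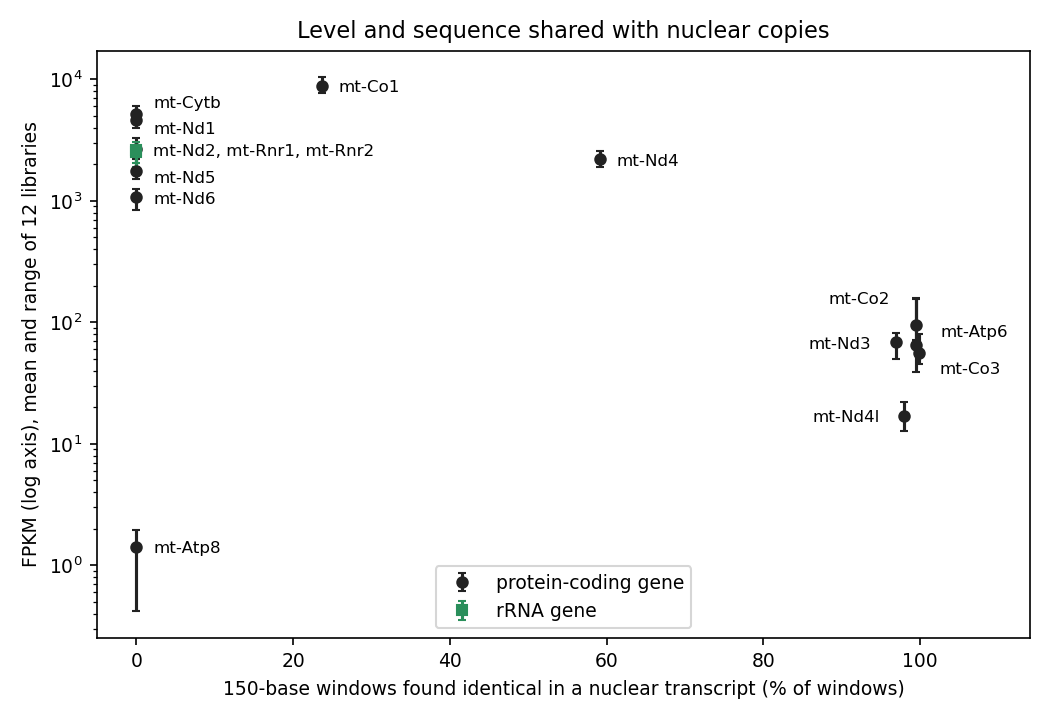
Mean FPKM over 12 libraries on a log axis, with bars from the lowest to the highest library, against the percentage of 150-base windows of each gene found identical in a nuclear transcript. The 5 genes with over 90% of windows shared lie between 12.8 and 159 FPKM, and mt-Atp8, with 0% shared, lies lowest.

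The copies were listed with levels of their own, nearest to those of their genes for mt-Co2, mt-Atp6, mt-Co3 and mt-Nd4l. The FPKM of mt-Co2 was 0.458 to 2.13 times that of Gm28661 across the 12 libraries. The ratio was 0.592 to 1.64 for mt-Atp6 over Gm10925, 0.999 to 1.38 for mt-Co3 over Gm28437 and 0.871 to 1.21 for mt-Nd4l over Gm10222. It was 2.37 to 5.47 for mt-Nd3 over Gm28438. That pair has 1 differing base but still shares 97.0% of its windows, and a link to the ratio was not tested. The partial copies were far below their genes: Gm28439 averaged 31.3 FPKM, where mt-Nd4 averaged 2199.6, and Gm29216 67.9 FPKM, where mt-Co1 averaged 8869.8. None of the 7 copies passed the test between CFA and saline, and all 7 had positive log2 fold changes, from 0.03 to 0.42.

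The 12 libraries held 33.6 to 39.2 M recovered reads, 35.5 to 39.2 M in CFA and 33.6 to 38.4 M in saline. Some libraries stood apart. CFA 1 was highest in summed FPKM of 10 striatal projection neuron markers, at 300.1, where the other 11 libraries lay between 88.5 and 228. CFA 6 was next, at 228, and the saline libraries lay between 88.5 and 164. Saline 3 and saline 5 had 2354 and 738 FPKM of 7 choroid plexus markers (4 of which passed the filter on low values), where the other 10 lay between 20.7 and 84.4. Xist was above 1 FPKM in 5 CFA libraries (34.9 to 60.7) and 2 saline libraries (37.3 and 40.2), and at 0.0199 FPKM or less in the others. The groups therefore also differ in what separates those libraries. The labels give no sex by which to read this split, and it cannot be fully told apart from the CFA difference. Lateral septum markers (9), none of which was at 0 in all libraries, had summed levels of 515 to 643 FPKM in CFA and 568.3 to 677 in saline. Summed pan-neuronal markers (12 genes) were 1601 to 1909.7 FPKM in CFA and 1728 to 1973 in saline, and astrocyte markers (9) were 758 to 918 in CFA and 906 to 950.2 in saline. Oligodendrocyte markers (9) were 1253 to 2996 FPKM in CFA and 942 to 2461 in saline, and microglia markers (9) 59.9 to 84.8 in CFA and 78.4 to 90.4 in saline. Endothelial markers (8) were 84.7 to 98.8 FPKM in CFA and 88.2 to 102 in saline, ependymal markers (7) 44.8 to 89.8 in CFA and 37.4 to 79.9 in saline, and erythroid markers (5) 78.9 to 668 in CFA and 157 to 333 in saline. No member of any of these lists was at 0 in all libraries, so the lateral septum markers do not check the tissue label.

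Mitochondrial genes took 3.59% to 4.79% of the recovered reads in CFA libraries (median 4.07%) and 3.77% to 4.23% in saline libraries (median 4.02%). The highest library was CFA 1 and the lowest was CFA 4, so the saline values lay inside the CFA range. The group means were 4.14% ± 0.398 in CFA and 3.98% ± 0.182 in saline (SD, n = 6 each). Without CFA 1 the difference of the means was 0.0219 percentage points, against 0.153 with it. Counting error was far smaller: the widest 95% Wilson interval reached 0.00669 percentage points to each side. The protein-coding genes took 3.09% to 4.05% of reads in CFA and 3.14% to 3.60% in saline, and the rRNA genes 0.496% to 0.742% in CFA and 0.616% to 0.694% in saline. As a share of summed FPKM, a measure that counts short genes for more, mitochondrial genes took 10.4% to 14.3% in CFA and 11.2% to 12.2% in saline, and 5 of 6 CFA libraries lay above every saline library, against 2 of 6 by reads. In whole tissue, a change in the cell types present cannot be told apart from a change in RNA per cell.

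No mitochondrial gene passed the test between CFA and saline. Genes with at least 1 FPKM in at least 6 libraries entered the test, and 16 of the 37 did: all 13 protein-coding genes, both rRNA genes and 1 tRNA gene. By limma with Benjamini-Hochberg adjustment over 13345 genes, 0 of the 16 passed the threshold of 0.05, where 0.0300% of all genes tested did (4 genes), 0.0150% higher and 0.0150% lower in CFA. Their adjusted p ran from 0.491 to 0.999. At an unadjusted p under 0.05 there was 1 of the 16, mt-Nd4, higher in CFA, where 7.67% of all genes had such a value and 3.11% were higher. By limma voom on the recovered reads 0 of the 16 passed (4 of all genes, 0.0300%) and 2, mt-Nd4 and mt-Nd5, had an unadjusted p under 0.05, against 7.43% of all genes. These counts moved with the setting. Of the 13 protein-coding genes 4 had such a limma p as TPM, where 1027 of all 13345 genes did. Without CFA 4 there were 5, and mt-Rnr1 as well, where 1846 of all genes did. With Xist as a covariate there were 0 (854 of all genes). For 0 of the 16 genes did the groups fail to overlap, where 0.495% of all genes did. Of the 13 protein-coding genes 10 had positive and 3 negative log2 fold changes, with a median of 0.13. Over all genes tested the median was -0.00427, and 48.0% were positive.

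**Figure D2:**
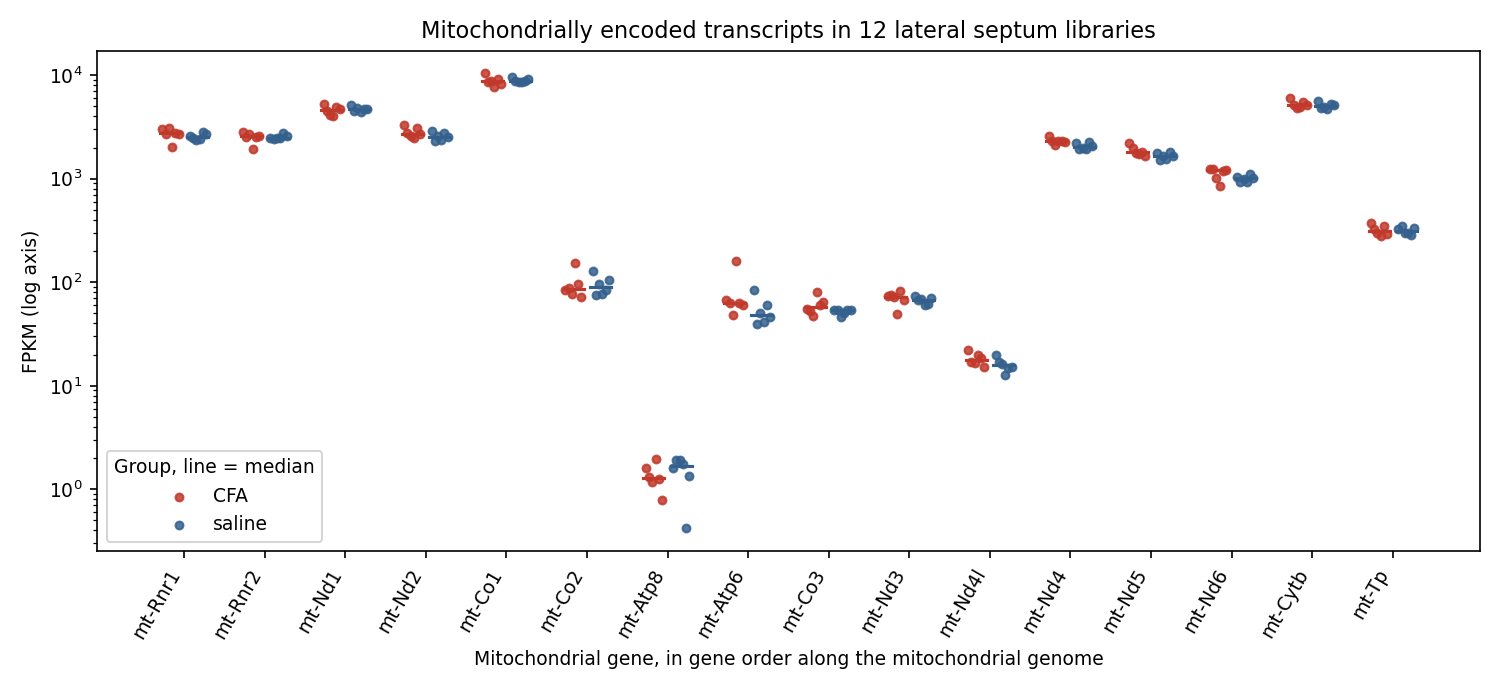
FPKM of the 16 mitochondrial genes with reads in most libraries, on a log axis, with CFA libraries (red) left of saline libraries (blue) at each gene and a line at the median of each group. Points are libraries, 6 per group. The groups overlap for every gene, and the genes from mt-Co2 to mt-Nd4l lie far below their neighbours.

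The rRNA genes encode the RNA of the mitochondrial ribosome, which makes the 13 proteins. mt-Rnr1, the 12S rRNA of the small subunit (70 to 1024, plus strand), was 2044 to 3054 FPKM in CFA (median 2744) and 2358 to 2806 FPKM in saline (median 2538). Its log2 fold change was 0.08 (95% interval -0.12 to 0.27, limma adjusted p = 0.891). mt-Rnr2, the 16S rRNA of the large subunit (1094 to 2675, plus strand), was 1915 to 2801 FPKM in CFA (median 2569.7) and 2423 to 2736 FPKM in saline (median 2473). CFA 4 was the lowest of the 12 libraries for both, and the other 5 CFA libraries lay among or above the saline ones. The log2 fold change of mt-Rnr2 was -0.02 (95% interval -0.19 to 0.16, adjusted p = 0.978), and as TPM (FPKM rescaled to the same sum in each library) it was 0.02. As TPM the median of all genes tested was 0.03, against -0.00427 in the main comparison. Without CFA 1 mt-Rnr1 had 0.04, and without CFA 4 the values were 0.15 for mt-Rnr1 (adjusted p = 0.260) and 0.06 for mt-Rnr2 (adjusted p = 0.586).

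The ratio of the rRNAs to each other varied less than either level. mt-Rnr2 over mt-Rnr1 was 0.888 to 0.952 in CFA libraries (median 0.932) and 0.954 to 1.05 in saline libraries (median 0.976). The groups did not overlap in this ratio, although the gap between them was narrow. Among the 120 ratios of 2 of the 16 genes it was the only one without overlap, 0.833% of them, and it is given as a description. The summed rRNA level was 0.162 to 0.226 of the summed level of the 13 protein-coding genes in CFA and 0.177 to 0.205 in saline.

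Complex I, the NADH dehydrogenase that passes electrons from NADH into the chain and pumps protons, takes 7 subunits from the mitochondrial genome. The 7 genes had 6 positive and 1 negative log2 fold changes, from -0.04 to 0.17, and none passed. mt-Nd4 encodes a proton-pumping subunit (10167 to 11544, plus strand). It was 2136 to 2572 FPKM in CFA (median 2327) and 1917 to 2274 FPKM in saline (median 2029). All CFA libraries but CFA 3 lay above every saline library. The log2 fold change was 0.17 (SE 0.06, 95% interval 0.04 to 0.30), with an unadjusted p of 0.0136 and a limma adjusted p of 0.491. With Xist as a covariate it was 0.13 (adjusted p = 0.802), and over the libraries with Xist alone, 5 CFA and 2 saline, it was 0.17 (adjusted p = 0.999).

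mt-Nd5, another proton-pumping subunit (11742 to 13565, plus strand), was 1639 to 2231 FPKM in CFA (median 1795) and 1526 to 1811 FPKM in saline (median 1671). CFA 1, CFA 2 and CFA 5 lay above every saline library and the other 3 lay among them (log2 fold change 0.15, 95% interval -0.01 to 0.31, limma adjusted p = 0.686; 0.09 without CFA 1). mt-Nd2, also a membrane subunit that pumps protons (3914 to 4951, plus strand), was 2458 to 3279 FPKM in CFA (median 2730) and 2301 to 2871 FPKM in saline (median 2550.3). CFA 1 and CFA 5 lay above every saline library for it (log2 fold change 0.13, adjusted p = 0.761; 0.08 without CFA 1). mt-Nd1, at the junction of the membrane arm with the peripheral arm (2751 to 3707, plus strand), was the complex I gene with a negative value. It was 3999 to 5286 FPKM in CFA (median 4564) and 4364 to 5133 FPKM in saline (median 4715), with CFA 1 above and CFA 3 and CFA 4 below all saline libraries (log2 fold change -0.04, adjusted p = 0.936; -0.09 without CFA 1).

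mt-Nd6, the protein-coding gene of the minus strand (13552 to 14070), overlaps the end of mt-Nd5 by 14 bases on the opposite strand. No source used here says whether strand was used in counting, and without strand its reads cannot be told apart from those of the opposite transcript. It was 847 to 1252 FPKM in CFA (median 1208) and 931 to 1122 FPKM in saline (median 1009). CFA 1, CFA 2, CFA 5 and CFA 6 lay above every saline library and CFA 4 below all of them. The log2 fold change was 0.15 (95% interval -0.05 to 0.35, limma adjusted p = 0.761), and 0.23 without CFA 4 (adjusted p = 0.165). Its ratio to mt-Nd5 was 0.493 to 0.748 in CFA and 0.581 to 0.619 in saline, so CFA libraries spread on both sides of the saline range, with CFA 4 lowest and CFA 6 highest.

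The remaining complex I genes are among those with near-complete nuclear copies. mt-Nd3 (9459 to 9806, plus strand) was 49.5 to 81.8 FPKM in CFA (median 72.8) and 60.3 to 73.0 in saline (median 67.5), with CFA 4 lowest (log2 fold change 0.05, limma adjusted p = 0.942; 0.15 without CFA 4, adjusted p = 0.288). mt-Nd4l (9877 to 10173, plus strand), which overlaps mt-Nd4 by 7 bases, was 15.0 to 22.2 FPKM in CFA (median 17.7) and 12.8 to 19.7 in saline (median 15.8). CFA 1 and CFA 4 lay above every saline library for mt-Nd4l, CFA 4 by a small margin (log2 fold change 0.17, adjusted p = 0.745; 0.11 without CFA 1).

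mt-Cytb, cytochrome b of complex III, which passes electrons from ubiquinol to cytochrome c (14145 to 15288, plus strand), was second in level. It was 4828 to 6081 FPKM in CFA (median 5139.7) and 4754 to 5571 FPKM in saline (median 5032). Its share of the summed FPKM of the 13 genes was 18.9% to 20.3% in CFA and 19.1% to 19.5% in saline. The log2 fold change was 0.05 (95% interval -0.10 to 0.19, limma adjusted p = 0.911), and 0.00763 without CFA 1.

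Complex IV, cytochrome c oxidase, hands electrons to oxygen. mt-Co1, its catalytic subunit (5328 to 6872, plus strand), had the highest level of all mitochondrial genes and ranked 2 in mean FPKM among all genes of the table. It was 7705 to 10375.5 FPKM in CFA (median 8726) and 8520.4 to 9651 FPKM in saline (median 8766). The log2 fold change was -0.02 (95% interval -0.18 to 0.14, limma adjusted p = 0.976), and 0.02 as TPM. As a share of the summed FPKM of the 13 genes, mt-Co1 was 31.5% to 34.4% in CFA (median 32.3%) and 32.6% to 34.8% in saline (median 34.0%), with the highest CFA library inside the saline range. mt-Co2, the subunit that receives electrons from cytochrome c (7013 to 7696, plus strand), was 72.3 to 155 FPKM in CFA (median 86.4) and 74.6 to 127 in saline (median 89.6). CFA 4 was highest and the other 5 CFA libraries lay at 96.1 FPKM or less. Its log2 fold change of 0.00 (limma adjusted p = 0.999) was -0.15 without CFA 4 (adjusted p = 0.650). mt-Co3, a core subunit without redox centres (8607 to 9390, plus strand), was 47.5 to 80.7 FPKM in CFA (median 57.2) and 45.8 to 53.9 in saline (median 53.6). CFA 1, CFA 4, CFA 5 and CFA 6 lay above every saline library, CFA 4 highest (log2 fold change 0.19, 95% interval -0.03 to 0.41, limma adjusted p = 0.710). Without CFA 4 it was 0.10, with Xist as a covariate 0.09, and over the libraries with Xist alone 0.20.

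Complex V, the ATP synthase, uses the proton gradient to make ATP. mt-Atp6, the subunit next to its rotating ring (7927 to 8607, plus strand), had the largest log2 fold change of the 16 genes, 0.43 (95% interval -0.11 to 0.98, limma adjusted p = 0.739). It was 47.9 to 159 FPKM in CFA (median 62.5) and 39.2 to 83.6 in saline (median 48.4). CFA 4 alone lay above every saline library, at 159 FPKM, and the other 5 CFA libraries were at 67.2 FPKM or less. Without CFA 4 the value was 0.20 (adjusted p = 0.631). Its nuclear copy Gm10925 was 96.7 FPKM in CFA 4 and 67.8 to 87.6 FPKM in the other CFA libraries, against 57.7 to 73.3 FPKM in saline libraries. mt-Atp8, a small accessory subunit (7766 to 7969, plus strand), was 0.790 to 1.94 FPKM in CFA (median 1.28) and 0.420 to 1.93 in saline (median 1.68), with a log2 fold change of -0.07 (adjusted p = 0.958), too few reads to show a difference of ordinary size.

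**Figure D3:**
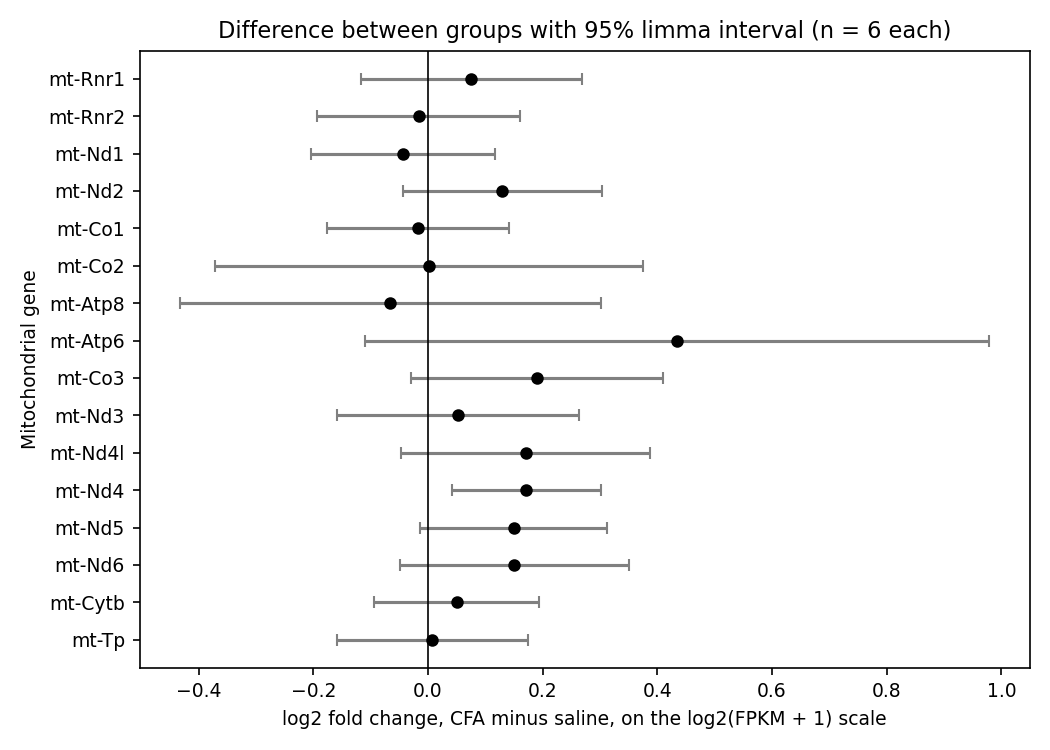
Log2 fold change of 16 mitochondrial genes, the CFA libraries over the saline ones as log2(FPKM + 1), with the 95% interval of limma (n = 6 libraries per group) and a line at 0. All intervals but that of mt-Nd4 include 0, and mt-Atp6, mt-Co2 and mt-Atp8 have the widest.

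Of the 22 tRNA genes, which encode the adaptors of mitochondrial translation, 21 were listed at 0 in all 12 libraries. Since these tRNAs are needed in every cell with mitochondria, a listed 0 is not read as absence. The exception was mt-Tp, the proline tRNA on the minus strand (15356 to 15422), the last gene on the chromosome in the table. Its sequence is shown because it alone of the tRNA genes carried reads.
mt-Tp: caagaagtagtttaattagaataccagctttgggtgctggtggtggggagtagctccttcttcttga

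mt-Tp was 279 to 374 FPKM in CFA (median 312) and 288 to 353 FPKM in saline (median 314), from 661 to 996 reads per library. The groups overlapped over nearly their whole ranges (log2 fold change 0.01, 95% interval -0.16 to 0.17, limma adjusted p = 0.988). Its levels are those of a gene shorter than the reads.

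Ordered by mean level over the 12 libraries, mt-Co1 came first and mt-Cytb second, followed by mt-Nd1, mt-Nd2, mt-Rnr1, mt-Rnr2, mt-Nd4, mt-Nd5, mt-Nd6, mt-Tp, mt-Co2, mt-Nd3, mt-Atp6, mt-Co3, mt-Nd4l and mt-Atp8. This is the order of the listed values, under the limits of counting given above. mt-Co1 was above mt-Cytb, and mt-Nd1 above mt-Nd2, in 12 of 12 libraries without overlap of their ranges. mt-Cytb was above mt-Nd1 in 12 of 12 libraries although the ranges overlapped. mt-Nd2 was above mt-Rnr1 in 6 of 12 libraries, so these neighbours did not differ beyond their spread. mt-Rnr1 was above mt-Rnr2 in 10 of 12 and mt-Rnr2 above mt-Nd4 in 11 of 12. Among the genes with near-complete copies, mt-Nd3 was above mt-Atp6 in 10 of 12 libraries and mt-Atp6 above mt-Co3 in 8 of 12.

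A pair of CFA libraries held most of the extremes. Of the 10 genes left after setting aside mt-Atp8 and the 5 with near-complete copies, CFA 1 was highest in 8 and CFA 4 lowest in 6. CFA 4 went the other way for mt-Co2, mt-Atp8, mt-Atp6 and mt-Co3, where it was the highest of the 12 libraries. For mt-Atp8 this was by 1.94 against 1.93 FPKM in saline 2, at few reads. These 4 follow one another among the protein-coding genes of the chromosome, and all fall under the limits of counting given above. For the next one along, mt-Nd3, CFA 4 was the lowest. The spread within the group was wider in CFA than in saline for 13 of the 16 genes, all but mt-Nd4, mt-Nd4l and mt-Atp8. The same count was not made over all genes, so the wider spread is not read as particular to mitochondrial genes. The coefficient of variation of mt-Co1 was 10.3% in CFA and 4.68% in saline, and that of mt-Rnr2 12.4% in CFA and 4.57% in saline. Without CFA 1 the median log2 fold change of the 13 protein-coding genes was 0.08, and without CFA 4 it was 0.15. CFA 1 was also the library with the highest striatal marker sum. With the striatal marker mean as a covariate the median was 0.06, and with the pan-neuronal mean 0.05. With the pan-neuronal mean mt-Nd4 had 0.13, mt-Nd5 0.07 and mt-Nd6 0.04, while mt-Atp6 had 0.67, mt-Co3 0.27 and mt-Co2 0.20, and none passed the adjusted threshold of limma.

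**Figure D4:**
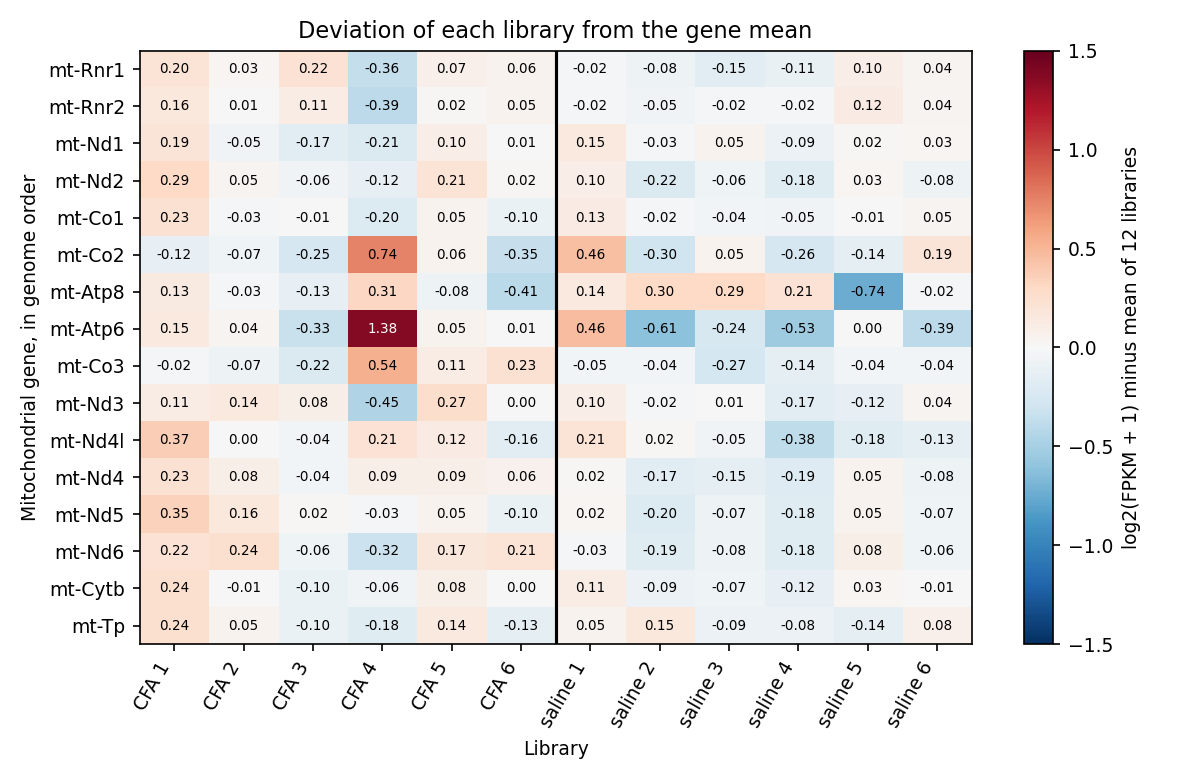
Deviation of each library from the mean of the 12 libraries on the log2(FPKM + 1) scale, for 16 mitochondrial genes in genome order (rows) and CFA libraries left of saline libraries (columns). CFA 1 is above the mean for most genes, and CFA 4 is above it from mt-Co2 to mt-Co3 and below it for both rRNA genes.

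The nuclear partners of these genes lay mostly below 0. Of 74 tested nuclear genes for subunits of complexes I to V, 5 had positive and 69 negative log2 fold changes, with a median of -0.09. By limma 0 of the 74 passed the adjusted threshold, and 27 had an unadjusted p under 0.05, all lower in CFA, where 4.56% of all genes tested had such a value. As TPM 18 were positive and 56 negative (median -0.05), where the median of all genes was 0.03, against -0.00427 in the main comparison. Of these TPM values 16 had an unadjusted p under 0.05, 1 of them higher, where 1027 of all 13345 genes did. With the pan-neuronal mean as a covariate 15 had (878 of all genes), and with Xist as a covariate 18 (854). By voom 25 had (992), with the striatal mean as a covariate 26 (1043), and without CFA 4 there were 37 (1846). Over the libraries with Xist, 5 CFA and 2 saline, 3 had (427 of all genes). Atp5k averaged 32.6 ± 2.95 FPKM in CFA and 38.9 ± 1.94 FPKM in saline (SD over 6 libraries). The smallest p belonged to Atp5k, a small subunit of the ATP synthase (-0.25, adjusted p = 0.206), the complex I subunit gene Ndufs6 (-0.20, adjusted p = 0.206) and the complex III subunit gene Uqcrq (-0.22, adjusted p = 0.217). In complex I, 6 of 7 mitochondrial genes were positive (median 0.15) and 32 of 36 nuclear genes negative (median -0.09). In complex IV 2 of 3 mitochondrial genes were positive and 10 of 10 nuclear genes negative (median -0.11). These 2 were mt-Co3 and mt-Co2, the latter at 0.00, both with near-complete nuclear copies, and mt-Co1 had -0.02. In complex III mt-Cytb had 0.05 and 9 of 9 nuclear genes were negative (median -0.10). In complex V 1 mitochondrial gene was positive and 1 negative, and 14 of 15 nuclear genes were negative (median -0.08). The difference between the sets was not tested. All 12 pan-neuronal markers were negative as well (median -0.07), and so were 8 of 9 lateral septum markers (median -0.13) and 8 of 9 microglia markers (median -0.18). All 10 striatal projection neuron markers (median 0.46) and all 9 oligodendrocyte markers (median 0.16) were positive. The part of cell types in these values was not tested beyond the covariates given above.

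Taken per library, the 13 mitochondrial genes summed to 24492 to 31362 FPKM in CFA (median 26533) and 24649.5 to 28626 FPKM in saline (median 26218). The 74 nuclear genes summed to 4594 to 5067 FPKM in CFA (median 4686) and 4841 to 5189.9 FPKM in saline (median 5117). The ratio of the sums was 4.83 to 6.83 in CFA (median 5.62) and 4.84 to 5.61 in saline (median 5.07). CFA 1, CFA 2 and CFA 5 lay above every saline library, and CFA 4 was the lowest of all 12. The mean level of single nuclear genes ran from 3.37 to 457 FPKM, with a median of 47.5.

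**Figure D5:**
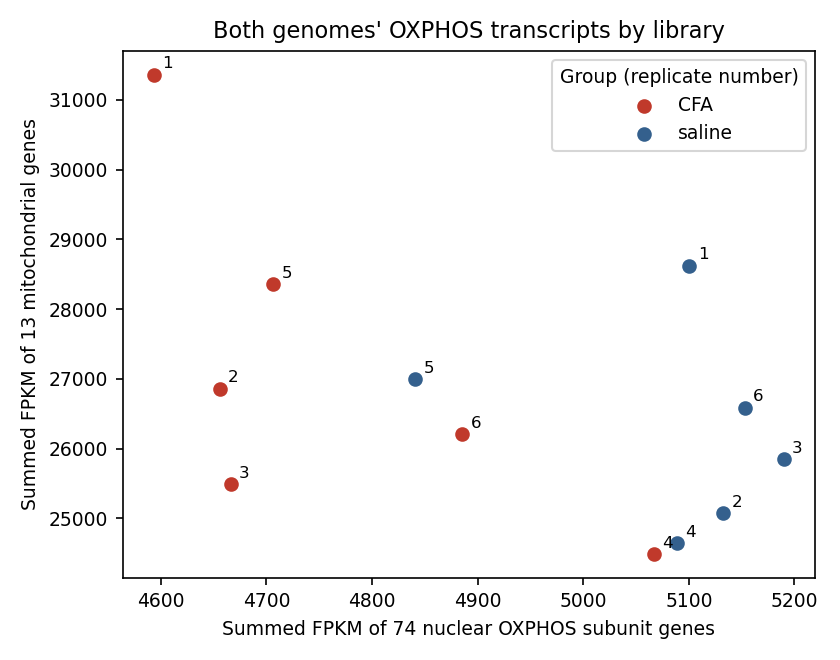
Summed FPKM of the 13 mitochondrial protein-coding genes against the summed FPKM of 74 nuclear genes for respiratory complex subunits, 1 point per library with its replicate number, CFA in red and saline in blue (axes do not start at 0). CFA libraries other than CFA 4 and CFA 6 lie left of all saline libraries, and CFA 1 lies highest.

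The nuclear genes that make and maintain mitochondrial RNA did not pass the test either: 0 genes of any of the 7 nuclear lists passed by limma. Of 13 tested genes of mitochondrial DNA transcription and maintenance, 4 were positive and 9 negative (median -0.03), or 6 and 7 as TPM, and 2 had an unadjusted p under 0.05, both lower in CFA, where 4.56% of all genes had such a value. They were Mgme1, an exonuclease of mitochondrial DNA (2.28 FPKM in CFA and 2.70 in saline, log2 fold change -0.17, adjusted p = 0.530), and Top1mt, the mitochondrial topoisomerase (-0.19, adjusted p = 0.640). Tfam, which packs mitochondrial DNA and starts its transcription, had -0.07 (adjusted p = 0.792). Of 16 tested genes of RNA processing and stability, 7 were positive and 9 negative (median -0.00277), or 12 and 4 as TPM (median 0.04), where the median of all genes was 0.03. They were led by Grsf1, an RNA-binding protein of mitochondrial RNA granules (-0.12, adjusted p = 0.555), Hsd17b10, a subunit of the enzyme that cuts tRNA 5′ ends (0.15, adjusted p = 0.654), and the oligoribonuclease gene Rexo2 (-0.10, adjusted p = 0.669).

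Proteins of the mitochondrial ribosome and translation factors work on the 13 mRNAs. Of 77 tested mitochondrial ribosomal protein genes, 21 were positive and 56 negative (median -0.04), and 9 had an unadjusted p under 0.05, all lower in CFA, where 4.56% of all genes had such a value. As TPM 37 were positive and 40 negative (median -0.00800), where the median of all genes was 0.03, against -0.00427 in the main comparison. Signs as TPM are shifted upward by this offset in every list. As TPM 5 had an unadjusted p under 0.05, 1 of them higher (1027 of all 13345 genes). By voom 4 had (992 of all genes). Without CFA 4 there were 17, 3 of them higher (1846 of all genes). Mrpl12 was 10.0 ± 0.973 FPKM in CFA and 11.9 ± 0.759 in saline (log2 fold change -0.23, limma adjusted p = 0.308), and Mrpl34 and Mrpl36 had -0.22 (adjusted p = 0.308) and -0.15 (adjusted p = 0.389). Of 11 translation factors 1 was positive and 10 negative (median -0.04), or 4 and 7 as TPM (median -0.00823), among them Taco1, an activator of mt-Co1 translation (-0.11, adjusted p = 0.608), the initiation factor gene Mtif2 (-0.11, adjusted p = 0.739) and the elongation factor gene Tufm (-0.11, adjusted p = 0.761). Of 7 biogenesis regulators 3 were positive and 4 negative (median -0.03), or 4 and 3 as TPM: the nuclear receptor gene Esrra had -0.16 (adjusted p = 0.623), and the transcription factor genes Nrf1 and Gabpa -0.06 (adjusted p = 0.854) and 0.05 (adjusted p = 0.918). Of 9 other genes of mitochondrial mass 3 were positive and 6 negative (median -0.04), or 5 and 4 as TPM, with the citrate synthase gene Cs at -0.08 (adjusted p = 0.663), the chaperonin gene Hspd1 at -0.12 (adjusted p = 0.709) and the import receptor gene Tomm22 at -0.08 (adjusted p = 0.839).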

How the data were processed

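Reads were aligned with HISAT2 2.0.5 to mm10, per the submitters' processing notes. The authors deposited FPKM per library with a length per gene. For the counter, its strand setting and reads with several matches, the processing is not given in the sources used here. Reads were recovered as FPKM times length, which took whole steps in each library; 100% of values came out whole to within 0.01 read. All 37 mitochondrial genes had the coordinates and strand of GENCODE M21 (GRCm38), whose transcripts gave the sequences. Mitochondrial transcripts were aligned to all others with blastn 2.17.0 (E-value at most 1e-10), and matches of at least 99% identity were taken as copies. Another table had 6 columns that fit no sample, and none was used.

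The test took 13345 genes, those that reached 1 FPKM in 6 or more libraries. A linear model of log2(FPKM + 1) on group was fitted with limma 3.58.1 (R 4.3.3; trended eBayes), and two-sided p-values were adjusted by Benjamini-Hochberg over all of these genes. This scale understates changes of low genes. The code of the fit was tried on simulated data, and no result here rests on that. Intervals of read shares cover counting error only. Summaries were made in Python 3.11.15 (pandas 2.3.3) and plots with matplotlib 3.10.9.

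The members and lists were chosen with earlier results of these data known. Named were all 13 protein-coding and both rRNA genes, tRNAs past the filter, the 3 members of each nuclear list with the smallest p, and the 3 nuclear copies with the highest mean FPKM (Gm28661, Gm10925 and Gm29216). The other 4 copies were named after their values were seen. Alternatives covered the pseudocount, filter, scaling, voom, a replicate block, Xist and marker covariates, and left-out libraries. Scaling by the median ratio between libraries changed almost nothing (mt-Nd4 0.171 with and without it), as the deposited values already carried such a scaling.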

Additional observations from a re-analysis of the deposited data

Results flagged for a closer look

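A library was compared with its group by the gap to its nearest neighbour relative to the range (Dixon's test). Of 56 groups of 6 libraries, 9 had a library that stood apart. Chance gives about 1 in 20 for independent groups of normally distributed values. These groups were not independent, since the same libraries and genes with shared sequence recur, so the 9 are not read as an excess. CFA 4 was the lowest CFA library for mt-Rnr1, at 2044 FPKM with the next at 2685, and for mt-Rnr2, at 1915 FPKM with the next at 2520. The same library was the highest for mt-Co2, at 155 FPKM with the next at 96.1, and for mt-Atp6, at 159 FPKM with the next at 67.2. CFA 1 was the highest CFA library for the nuclear copies Gm28661, at 185 FPKM with the next at 95.4, Gm28438, at 31.0 FPKM with the next at 17.8, and Gm28439, at 43.1 FPKM with the next at 30.8. Among saline libraries, saline 4 stood apart for Gm28439, at 50.5 FPKM with the next at 32.1, and saline 6 for Gm28661, at 84.9 FPKM with the next at 65.3. These values were not tested against any other property of the libraries.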

How the results depend on the processing

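Over 24 alternatives, 12 of which left out 1 library each, 0 of 383 gene fits of the 16 mitochondrial genes passed the threshold, with adjusted p from 0.165 (mt-Nd6 without CFA 4) to 0.9995, and 31 had the opposite sign, none of them for mt-Nd2, mt-Nd4, mt-Nd4l, mt-Nd5, mt-Nd6, mt-Atp6 or mt-Co3. The counts of nuclear copies and of nuclear list members that passed were also 0 in each alternative run. Of the 207 nuclear list members 41 had an unadjusted p under 0.05 in the main comparison, where 1024 of all 13345 genes did. As TPM there were 23 (all genes 1027) and by voom 33 (992). With Xist as a covariate there were 27 (854), and with the pan-neuronal mean 27 (878). Over libraries with Xist there were 3 (427). Without 1 library there were 34 to 61 (826 to 1846), with 61 and 1846 without CFA 4. Of the protein-coding genes 9 to 13 of 13 were positive, and 10 of 12 with a filter at 5 FPKM, which mt-Atp8 did not reach. The median of the 13 genes ran from 0.05 to 0.17, and from 0.08 to 0.16 when 1 library was left out. The group difference in the share of mitochondrial reads was 0.153 percentage points, and 0.72 as a share of summed FPKM, and 0.0219 percentage points without CFA 1. Same-numbered libraries correlated between -0.0118 and 0.159 in their deviations, with 0 of 6 pairs best matched to each other, so the numbers were not taken as pairs; with a replicate block, 0 mitochondrial genes passed, as without it. Of all genes, 4 passed in the main comparison, 2 without a filter, 1 with a replicate block, 1 with Xist as a covariate, 1 over libraries with Xist, 13 with the striatal and 1 with the pan-neuronal covariate, and 1 to 11 without 1 library (10 without CFA 1, 11 without saline 3, 1 without CFA 6 and 1 without saline 5). Without CFA 4, 1846 genes had an unadjusted p under 0.05, against 1024 with it. Depth limits mt-Atp8 most, at 3 to 15 reads per library.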

Other observations

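The ratios of mt-Nd4 and of mt-Nd2 to mt-Nd1 were chosen after their values were seen and are given without a test. mt-Nd4 shares part of its sequence with a nuclear copy, and mt-Nd2 and mt-Nd1 do not. mt-Nd4 over mt-Nd1 was 0.470 to 0.583 in CFA (median 0.504) and 0.412 to 0.483 in saline (median 0.436), with 5 of 6 CFA libraries above every saline library. mt-Nd2 over mt-Nd1 was 0.580 to 0.623 in CFA (median 0.619) and 0.508 to 0.582 in saline (median 0.539), again with 5 of 6 above every saline library. As a share of the summed FPKM of the 13 genes, mt-Nd1 was 16.2% to 17.8% in CFA and 17.4% to 18.6% in saline, and all CFA libraries lay below the saline median.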
